A study of Rattus norvegicus with 2 samples.

Results

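miR-21 was followed in small RNA libraries made from exosomes of neonatal rat heart cells. The members are the miRNAs of the count table named mmu-miR-21 followed by a, b, c or only an arm. The name rule found 3 of the 635 listed miRNAs, mmu-miR-21a-5p, mmu-miR-21a-3p and mmu-miR-21b. Of these 3, only miR-21a-5p reached 10 reads over both libraries, the limit for the test between libraries that 340 of the 635 miRNAs passed. The hearts came from Wistar rats 1 to 2 days old, and the primary cells were kept for 48 h either untreated, the source of NC-Exo, or in 1 μmol/L Ang II as a hypertrophic stimulus, the source of HC-Exo. Cardiomyocytes had been enriched by differential adhesion and plated with bromodeoxyuridine, which limits the growth of dividing cells. Even so, other heart cells can remain in such cultures. The exosomes were taken from the culture medium, and each condition had 1 library, so the differences between them have no replicate check. Any test on reads compares these 2 libraries, not the conditions.

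miR-21 is among the miRNAs most often studied in cardiac fibrosis. Its 5p strand is the guide that is mostly loaded into Argonaute, and in cardiac fibroblasts it represses Spry1, an inhibitor of ERK signalling, and in several cell types Pdcd4. Its 3p strand is the passenger strand, which is usually degraded, although it has been described in exosomes of cardiac fibroblasts with Sorbs2 and Pdlim5 as targets in cardiomyocytes. Fibrosis itself was not measured in these libraries, and the link is background only.

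The mature strands are shown because the arm balance rests on telling them apart. They are the rat entries in RefSeq (GRCr8), matched by name, with the seed (bases 2 to 8) in capitals.
rno-miR-21-5p: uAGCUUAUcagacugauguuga
rno-miR-21-3p: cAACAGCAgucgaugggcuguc
Both strands have 22 bases, with a GC content of 36.4% in the 5p strand and 59.1% in the 3p strand. The 5p strand starts with U, a base that Argonaute favours at the start of a guide, and the 3p strand starts with C. No other entry among the 724 rat mature miRNAs of the table shares either seed, so miR-21 forms no seed family there. The most similar other mature sequences are rno-miR-101a-5p, 7 edits away from the 5p strand, and rno-let-7f-2-3p, 8 edits away from the 3p strand. Both strands come from the hairpin Mir21 of 92 bases, on the minus strand at chr10:71902600-71902691 of GRCr8, where the RefSeq gene list places it between Tubd1 and Vmp1 with 0 overlapping genes. In the hairpin the mature strands are in capitals, the 5p strand at positions 18 to 39 and the 3p strand at positions 56 to 77 from its 5′ end.
Mir21: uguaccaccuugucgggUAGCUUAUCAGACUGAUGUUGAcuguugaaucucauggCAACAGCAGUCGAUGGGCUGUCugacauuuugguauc
The count table names its miRNAs after the mouse, and the mouse sequences were not compared with these. For miR-21b no sequence is given.

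The counts added up to 102608 miRNA reads for NC-Exo and 133155 for HC-Exo. A single read equals 9.75 reads per 1000000 miRNA reads (RPM) in the first and 7.51 in the second. miR-21a-5p had 1784 reads in NC-Exo, which is 17387 RPM or 1.74% of the library (95% Clopper-Pearson interval 1.66 to 1.82%). In HC-Exo it had 2588 reads, 19436 RPM or 1.94% (1.87 to 2.02%). The guide strand was therefore an abundant miRNA in both libraries, with a share that was slightly larger in HC-Exo and intervals that did not overlap. These intervals cover counting error only, because PCR reads without molecular identifiers are not independent molecules. Because other heart cells can remain in such cultures, a shift in which cells released the exosomes and a shift in the miRNA they carried cannot be told apart.

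By level, miR-21a-5p ranked 14 among the 515 miRNAs with reads in NC-Exo, and 13 to 14 at the bounds of its interval. In HC-Exo it ranked 11 among 569, and 11 to 14 at the bounds. Directly above it in both libraries was miR-335-5p, with 1.75% of NC-Exo and 2.03% of HC-Exo, and the intervals overlapped in both. Directly below it in both libraries was miR-143-3p, a miRNA of smooth muscle. Its share of 1.56% in NC-Exo had an interval apart from that of miR-21a-5p, whereas its 1.93% in HC-Exo overlapped. Between rank 14 and rank 11, miR-21a-5p passed let-7d-3p, miR-378a-3p and miR-378c, which had 2.30, 2.08 and 1.84% of NC-Exo, above its interval there. In HC-Exo these had 1.92, 1.93 and 1.70%, and its interval holds the shares of the first 2, so its place there is known only to within a few ranks.

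**Figure D1:**
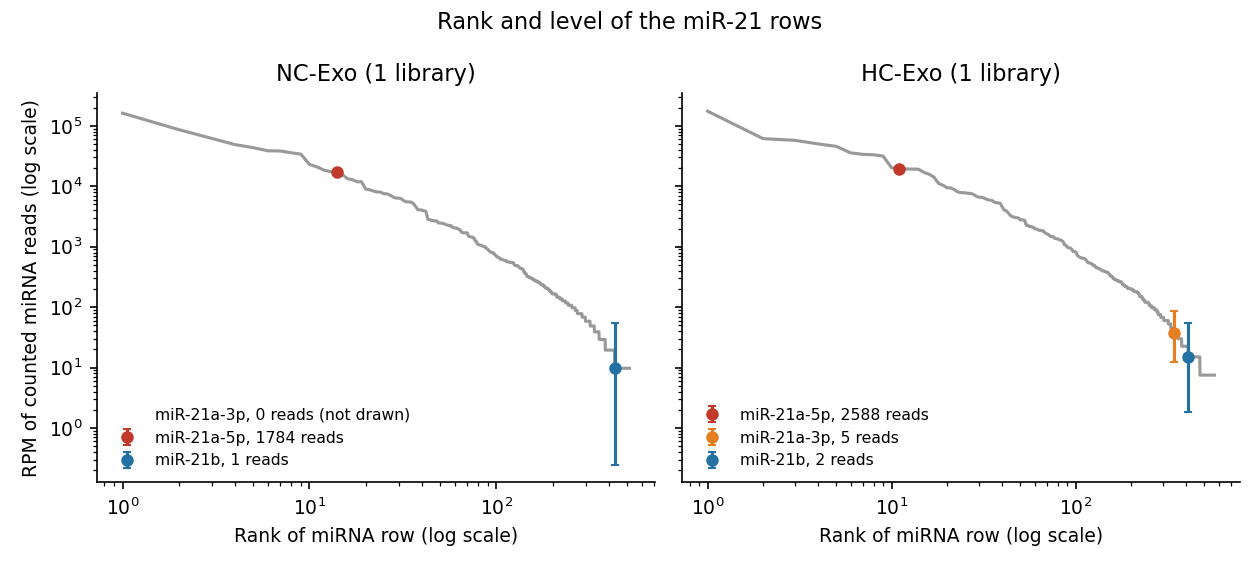
Level of every listed miRNA (RPM, log scale) against its rank (log scale) in NC-Exo and HC-Exo, 1 library each, with the miR-21 members as coloured points and their 95% Clopper-Pearson intervals. miR-21a-5p sits at rank 14 in NC-Exo and 11 in HC-Exo, while miR-21a-3p (0 and 5 reads) and miR-21b (1 and 2 reads) lie at the low end.

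The low members held few reads. miR-21a-3p had 0 reads in NC-Exo, which allows up to 29.2 RPM by a limit of 3 reads, and 5 reads in HC-Exo, 37.6 RPM (12.2 to 87.6 RPM) or 0.00376% of the library. In HC-Exo it shared rank 344 with the other miRNAs of 5 reads, of which there were 18 in all, and its rank ran from 278 to 474 at the bounds. miR-21b, a further miR-21 name of the mouse annotation, had 1 read in NC-Exo (9.75 RPM, rank 430) and 2 reads in HC-Exo (15.0 RPM, rank 410). Such counts were common, since 248 of the 635 miRNAs had 5 reads or fewer over both libraries.

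The HC-Exo over NC-Exo ratio of miR-21a-5p in RPM was 1.12 (95% interval 1.05 to 1.19), a log2 ratio of 0.16 (0.07 to 0.25). The 2 libraries differed in this miRNA by a two-sided exact binomial test, conditioned on its summed reads (p = 0.000300, Benjamini-Hochberg adjusted p = 0.00300 over 340 miRNAs). The difference was small, and its interval lies below a fold of 1.5, which 123 of the 340 miRNAs (36.2%) passed in either direction. Of the 192 with at least 50 reads 37 passed that fold and of the 41 with at least 1000 reads 0 did, so a ratio under 1.5 does not set miR-21a-5p apart at its depth. By the same test at an adjusted p under 0.05, 47 of the 340 (13.8%) were higher in HC-Exo and 29 (8.53%) were lower.

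Depth bears on that call. Of the 41 miRNAs with at least 1000 reads, 27 (65.9%) passed the test, 15 higher and 12 lower in HC-Exo, so that passing was common at the read number of miR-21a-5p. Its log2 ratio ranked 16 among these 41 and 158 among the 340. The median log2 ratio was 0.04 over the 41 and 0.10 over the 340, so the miR-21a-5p ratio stood close to the middle of the libraries.

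**Figure D2:**
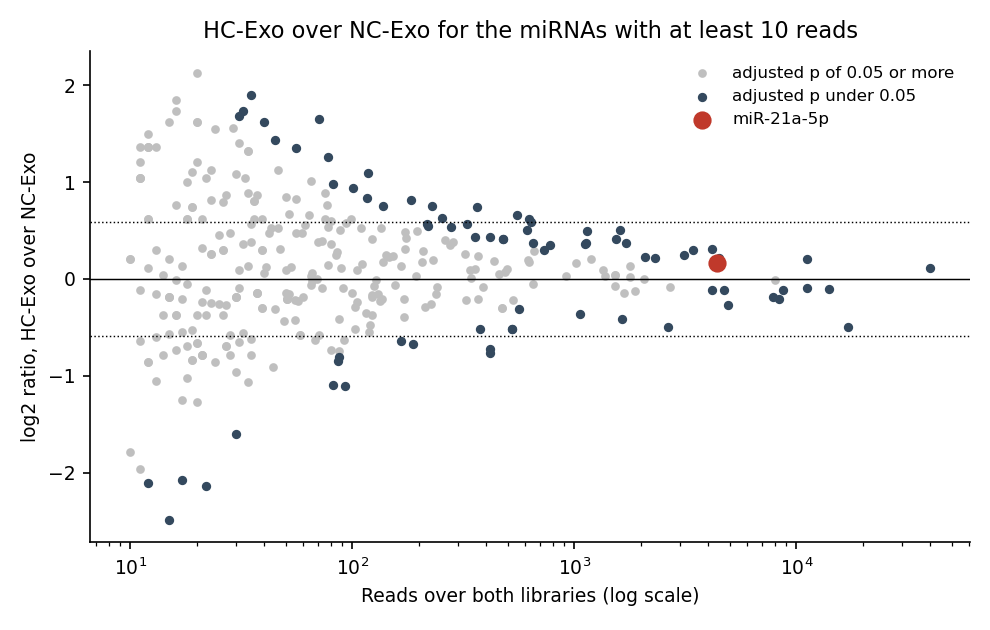
Log2 ratio (HC-Exo over NC-Exo) against reads over both libraries (log scale) for the 340 miRNAs with at least 10 reads, 1 point each, with dark points at an adjusted p under 0.05 by the exact binomial test and dotted lines at a fold of 1.5. miR-21a-5p, in red, has a log2 ratio of 0.16, inside the dotted lines.

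How the libraries were scaled decided whether miR-21a-5p passed. Its log2 ratio was above 0 under library totals and under each of the 6 other scalings. With DESeq2 size factors it was 0.13 and with the authors' normalised values 0.15, and the exact binomial test still passed (adjusted p = 0.0180 and 0.00720). With TMM scaling it was 0.09 (adjusted p = 0.132 by the exact binomial test). Upper-quartile scaling, which lowers every log2 ratio by 0.12, left 0.04, a ratio of 1.03 with an interval of 0.966 to 1.09 (adjusted p = 0.635 by the exact binomial test). Setting the median log2 ratio to 0 and leaving the 10 most abundant miRNAs out of the totals each gave 0.06 (adjusted p = 0.366 and 0.342 by the exact binomial test). The excess of miRNAs called higher also depended on the scaling, with 47 higher and 29 lower under library totals, 35 and 35 under TMM, 24 and 38 under upper-quartile scaling, and 29 and 36 both with the median set to 0 and without the 10 most abundant miRNAs.

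**Figure D3:**
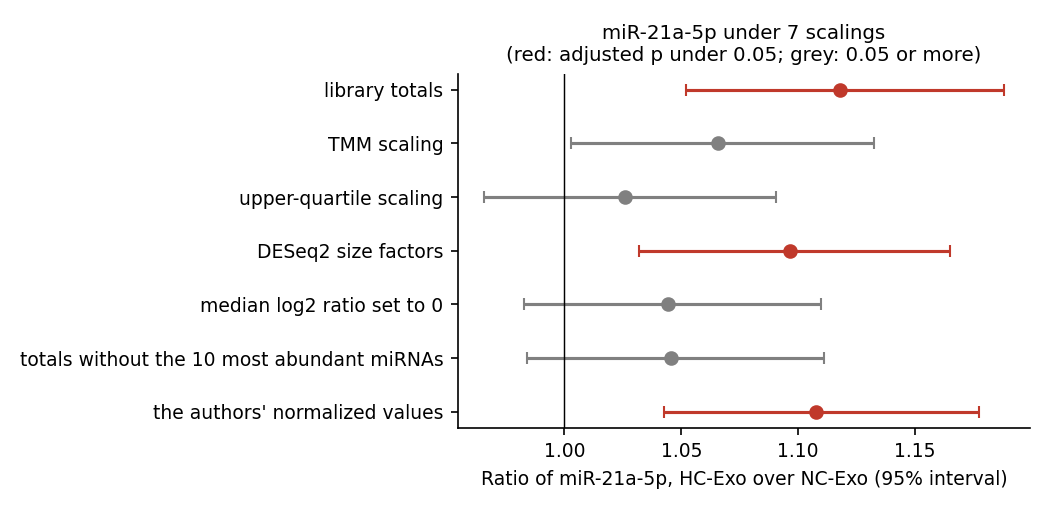
Ratio of HC-Exo over NC-Exo for miR-21a-5p under 7 scalings of the same counts, with 95% intervals for counting error, in red where the adjusted p of the exact binomial test was under 0.05 and in grey otherwise. The ratio runs from 1.03 with upper-quartile scaling to 1.12 with library totals, and 3 of the 7 scalings are red.

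With under 10 reads, miR-21a-3p was not among the 340 miRNAs tested, and its unadjusted p was 0.0731 by the same exact binomial test. Taking its 5 reads as they stand and a floor of 3 reads, or 29.2 RPM, in NC-Exo, its level in HC-Exo was at least 1.28-fold higher. That bound leaves out the counting error of the 5 reads, and the counting interval of the ratio starts at 0.706, so a lower level in HC-Exo is within counting error. At the HC-Exo rate, 3.85 reads would fall in a library of the size of NC-Exo. In all, 120 of the 635 miRNAs had 0 reads in NC-Exo, and 7 of these had at least 5 reads in HC-Exo, miR-21a-3p among them. miR-21b was under the floor in both libraries, and no fold is given for it.

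The 5 miRNAs nearest to miR-21a-5p in level over both libraries were miR-335-5p, miR-143-3p, miR-378c, miR-378a-3p and let-7d-3p, at distances of 0.06 to 0.41 on the log2 RPM scale over 2 libraries. miR-335-5p, the nearest, had 1794 NC-Exo reads and 2701 HC-Exo reads, a log2 ratio of 0.21. The reads of miR-143-3p were 1596 and 2571, a log2 ratio of 0.31. The other 3 were lower in HC-Exo. miR-378c had a log2 ratio of -0.12, miR-378a-3p, which lies in the Ppargc1b gene of oxidative tissues, had -0.11, and let-7d-3p had -0.27. All 5 passed the exact binomial test at library totals (adjusted p from 6.28e-10 to 0.0465), which compares each with no change. Against miR-21a-5p itself, by Fisher's exact test on both miRNAs, the 3 lower ones differed (adjusted p from 2.03e-10 to 0.000241), while miR-143-3p (adjusted p = 0.0946) and miR-335-5p did not pass. For miR-21a-3p this likeness could not be computed, because it had no reads in NC-Exo.

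A comparison of miR-21a-5p with another miRNA of the same library needs no scaling. By two-sided Fisher's exact test on the reads of both miRNAs in both libraries, adjusted over 339 miRNAs, 52 (15.3%) had a ratio different from that of miR-21a-5p. The ratio of miR-21a-5p was the higher in 38 of them and the lower in 14. Among the 40 others with at least 1000 reads, 19 differed, with miR-21a-5p the higher in 16 and the lower in 3. Against most miRNAs no difference from miR-21a-5p was detectable at this depth, and against the abundant ones that did differ, miR-21a-5p was mostly the one with the higher ratio. Many of those 16 carry a let-7, miR-23 or miR-378 name. Some of the 38 hold identical counts, such as let-7a-1-3p and let-7c-2-3p (230 and 243 reads each). The counts are therefore not of independent miRNAs.

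The cardiomyocyte miRNA miR-1a-3p was the most abundant in both libraries, and miR-21a-5p had 10.7 reads per 100 reads of it in NC-Exo against 11.1 in HC-Exo. The log2 ratios of the pair differed by 0.05 (95% interval -0.04 to 0.14, adjusted p = 0.5 by Fisher's exact test), so the interval allows at most a small shift of miR-21a-5p against the leading cardiomyocyte miRNA. Of the 6 cardiomyocyte miRNAs, 1 differed from miR-21a-5p, miR-133b-3p at -0.35, beside 15.3% of all 339. The others that did not pass were at -0.20 (miR-133a-3p), -0.88 (miR-208a-3p), 0.33 (miR-208b-3p) and -1.27 (miR-499-5p). Per 100 reads of miR-214-3p, from a mesenchymal cluster, miR-21a-5p had 130 reads within NC-Exo against 205 within HC-Exo. Here the difference was 0.66 (0.51 to 0.80, adjusted p = 1.06e-17 by Fisher's exact test). Against miR-126a-5p of endothelial cells it was 0.65 (0.56 to 0.75, adjusted p = 1.52e-37 by Fisher's exact test). Both of these shifts of miR-21a-5p were against miRNAs that were themselves lower in HC-Exo, and other miRNAs of the same cell types differed from them. Against miR-199a-5p of mesenchymal cells the difference was -1.10 (-1.93 to -0.33, adjusted p = 0.0275 by Fisher's exact test), so 2 of 5 mesenchymal miRNAs passed, in opposite directions, beside the same 15.3%. It was -1.19 against miR-199b-5p, -0.25 against miR-199a-3p and 0.78 against miR-152-3p, which did not pass. Against miR-126a-3p, the other arm of the endothelial hairpin, it was -0.05 (-0.24 to 0.14, adjusted p = 0.766 by Fisher's exact test).

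In the arm balance, all 1784 miR-21a reads of NC-Exo were from the 5p strand, which allows a 3p share of up to 0.168% by the limit of 3 reads. In HC-Exo 5 of 2593 reads were from the 3p strand, a share of 0.193% (95% Clopper-Pearson interval 0.0626 to 0.449%) or 518 reads of the 5p strand for each 3p read. Over both libraries the 3p share was 0.114% (0.0371 to 0.266%). The reads of this hairpin were thus almost only of its guide strand in either library. The balance did not pass between the libraries by two-sided Fisher's exact test (p = 0.0841, adjusted p = 0.445). The adjustment covered the 143 hairpins with both arms listed under the same hairpin name, and 4 of the 143 (2.80%) passed. With 5 passenger reads in all, the interval of the HC-Exo share started below the limit of 0.168% for NC-Exo, and a difference was not detectable at this depth.

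The share of the smaller arm placed miR-21a at rank 5 from the lowest among the 143 hairpins, whose median was 7.5%. The 5p strand was the larger arm in 57 of the hairpins and the 3p strand in 86. A low share is easier to see at high depth, and among the 28 hairpins with at least 1000 reads, a limit chosen after the counts were seen, miR-21a again ranked 5, with a median of 1.38%. Of these, 13 had the 5p strand as the larger arm, and among them miR-21a had the lowest share, against a median of 1.46% and a highest share of 12.03%. The neighbours in this order were close. miR-328 (0.0482%), miR-130a (0.0741%) and miR-23b (0.0887%) lay below it and miR-25 (0.117%), let-7g (0.186%) and miR-143 (0.216%) above it, and the interval of miR-21a holds all 6 values. let-7g, the only one of these 6 with the 5p strand as the larger arm, had 0 NC-Exo and 3 HC-Exo passenger reads, a pattern like the 0 and 5 of miR-21a. A further 108 arms with at least 10 reads, 9 of them with at least 1000, had no partner under the same hairpin name and are not in this order. Some have a partner whose name carries a copy number, such as let-7a-1-3p for let-7a-5p. With arms paired across copy numbers, miR-21a also ranked 5, among 156 hairpins.

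**Figure D4:**
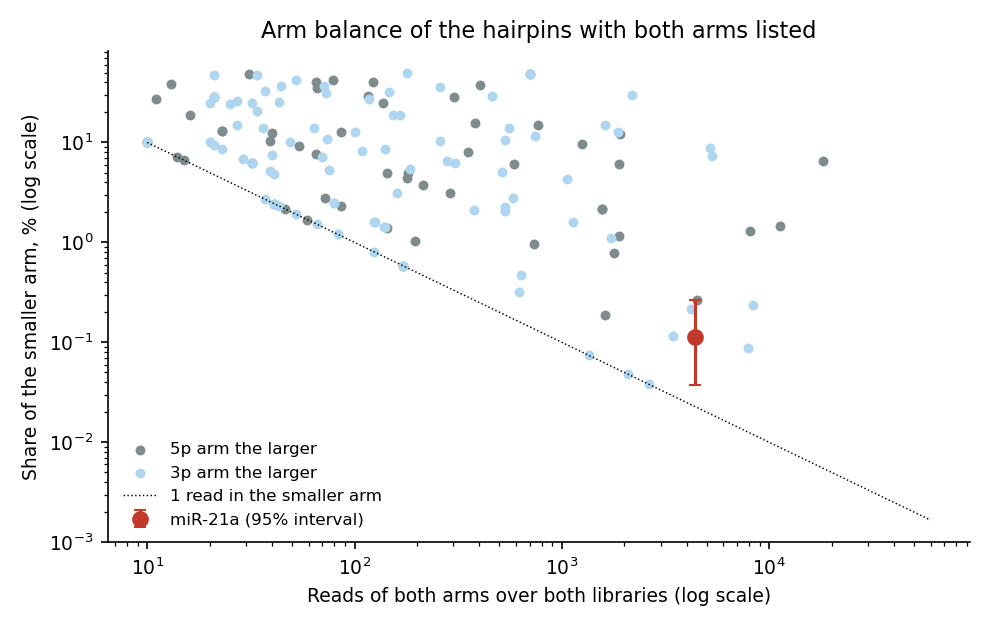
Share of the smaller arm (percent, log scale) against reads of both arms over both libraries (log scale). The hairpins are those with both arms listed under the same hairpin name, coloured by the larger arm. A dotted line shows where 1 read in the smaller arm falls. miR-21a, in red with its 95% Clopper-Pearson interval, has a share of 0.114%, rank 5 of 143.

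The first base was compared across hairpins, since the 2 strands of miR-21 differ in it. Of the 85 hairpins with a rat sequence for both arms, the larger arm started with U in 35. In 39 hairpins only 1 arm started with U, and it was the larger arm in 28 of them, as in miR-21a.

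Other miRNAs linked to fibrosis were set beside miR-21a-5p. Of 13 miRNAs known as antifibrotic, 3 were higher in HC-Exo by the exact binomial test and 0 lower, with a median log2 ratio of 0.20 beside 0.10 over all 340. The 3 were miR-24-3p (log2 ratio 0.20), miR-133a-3p (0.36) and miR-133b-3p (0.51). Both miR-133 members are made in muscle, and miR-133 is known to repress Ctgf. The miR-29 strands, which repress collagen genes, had log2 ratios of 0.35, 1.01 and -0.19 for miR-29a-3p, miR-29b-3p and miR-29c-3p, and 0 of these 3 passed the exact binomial test. miR-101a-3p and miR-101b-3p, both on the antifibrotic list, hold identical counts (12 and 9 reads) and did not pass. Of 6 miRNAs known as profibrotic, 3 were higher and 0 lower, with a median of 0.53. These were miR-125b-5p (0.22), miR-223-3p (0.75) and miR-199b-5p (1.35), and the count of 3 fell to 2 with TMM scaling and to 1 with upper-quartile scaling, with the median set to 0 and without the 10 most abundant miRNAs. Both lists had a median log2 ratio above 0 under all 7 scalings, and the higher counts of both stood beside the 13.8% of all miRNAs tested.

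Set against miR-21a-5p by Fisher's exact test, 1 of the 13 antifibrotic miRNAs differed, miR-133b-3p, against which miR-21a-5p had a log2 difference of -0.35 (95% interval -0.61 to -0.09, adjusted p = 0.0472). Of the 6 profibrotic miRNAs, 0 differed, and both counts stand beside 52 of all 339 (15.3%). For miR-125b-5p, the deepest of them, the difference was -0.06 (-0.21 to 0.09), and for miR-24-3p, the deepest antifibrotic one, -0.04 (-0.15 to 0.06). Most miRNAs of any kind did not differ from miR-21a-5p, so these counts say nothing particular to either list. The profibrotic list holds miR-155-5p (11 and 8 reads) but not a separate entry named miR-155 (6 and 29 reads). That entry had a log2 ratio of 1.90 (adjusted p = 0.0121 by the exact binomial test). Against that entry, miR-21a-5p had a log2 difference of -1.74 (adjusted p = 0.0357 by Fisher's exact test).

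**Figure D5:**
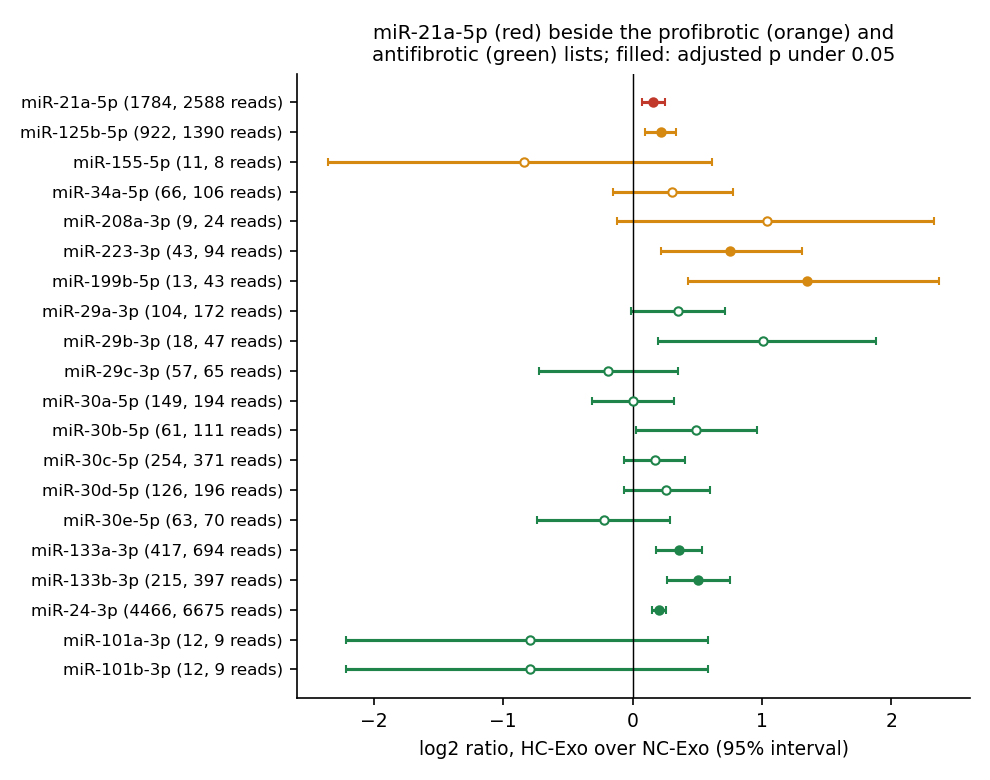
Log2 ratio (HC-Exo over NC-Exo) with 95% intervals for counting error for miR-21a-5p (red), 6 profibrotic (orange) and 13 antifibrotic (green) miRNAs, with the reads in NC-Exo and HC-Exo beside each name and filled points at an adjusted p under 0.05 by the exact binomial test. The interval of miR-21a-5p (0.07 to 0.25) is narrow beside those of the miRNAs with few reads.

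miRNAs that are often used as normalisers gave no single reference for miR-21a-5p. Among 10 of them, 4 were higher and 1 lower in HC-Exo by the exact binomial test, with a median log2 ratio of 0.25, beside 13.8% higher and 8.53% lower and a median of 0.10 over all 340. With TMM, upper-quartile and median scaling and without the 10 most abundant miRNAs, 2 were lower. By Fisher's exact test, 5 of the 10 differed from miR-21a-5p, beside 15.3% of all 339. The difference was 0.28 against let-7a-5p and 0.31 against miR-423-5p, with miR-21a-5p the higher. It was -0.58 against miR-16-5p, -0.50 against miR-93-5p and -0.59 against miR-423-3p, with miR-21a-5p the lower. Against miR-191-5p it was 0.03 (95% interval -0.13 to 0.19). The direction of miR-21a-5p thus depended on the reference chosen.

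Lists of miRNAs known from particular cell types were read beside these values, as a check of the cardiomyocyte label. Over all 340 miRNAs tested, 13.8% were higher and 8.53% lower in HC-Exo, with a median log2 ratio of 0.10, and the counts below stand beside these. The 6 cardiomyocyte miRNAs were all detected and summed to 16.9% of NC-Exo and 18.4% of HC-Exo, with 4 higher in HC-Exo, 0 lower and a median log2 ratio of 0.43. Most of that sum was miR-1a-3p (16.2 and 17.5%), whose log2 ratio of 0.11 turned below 0 with upper-quartile scaling. With that scaling 2 of the 6 were called higher. The other 5 summed to 0.690% and 0.913%, and miR-208a-3p (9 and 24 reads) and miR-499-5p (10 and 35 reads) were rare, so the abundance of cardiomyocyte miRNAs rested on miR-1a-3p. Of the 6 fibroblast and mesenchymal miRNAs, 5 could be tested, and 3 were higher and 1 lower, with a median of 0.41 and a sum of 1.55% of NC-Exo and 1.26% of HC-Exo reads. Most of these reads were of miR-214-3p, the 1 that was lower (log2 ratio -0.49), and miR-214-5p had 0 reads in NC-Exo. Without miR-214-3p the sum was 0.219% and 0.315%, so the direction of the mesenchymal sum rested on that miRNA. The count of 3 higher was 2 with TMM, upper-quartile and median scaling and without the 10 most abundant miRNAs.

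The 2 endothelial miRNAs summed to 9.11% and 6.68%, with 0 higher, 1 lower and a median log2 ratio of -0.14. They are the arms of 1 hairpin and their log2 ratios had opposite signs, -0.49 for miR-126a-5p, which held most of the reads, and 0.21 for miR-126a-3p. The 3p share of this hairpin was 5.07% in NC-Exo against 8.003% in HC-Exo (adjusted p = 1.49e-13 by Fisher's exact test). The 2 smooth muscle miRNAs summed to 2.30% and 2.69%, mostly miR-143-3p, with 1 higher, 0 lower and a median of 0.17. Of 8 blood cell miRNAs 7 were listed and 6 tested, 1 higher (0 with upper-quartile and median scaling and without the 10 most abundant miRNAs) and 0 lower with a median of 0.30, and they summed to 1.43% and 1.51%, led by miR-486a-5p and miR-486b-5p, which hold identical counts. With that pair counted once the blood sum was 0.790% and 0.855%, and the median over the 5 tested was 0.56. The liver miRNA miR-122-5p had 14 and 16 reads. miR-21 is made in many cell types, and members of these lists were called in both directions beside its ratio of 1.12. The lower calls were of miR-126a-5p and miR-214-3p alone, and no list was tested as a whole. The part of these cell types in the level of miR-21a-5p was not tested.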

How the data were processed

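Small RNA of exosomes was sequenced, with 1 library for each of NC-Exo and HC-Exo. The authors deposited a count of reads per miRNA, which was the input of every test, and a normalised signal, which is 12.1 per read in NC-Exo and 9.23 in HC-Exo except in 1 miRNA and served as an alternative scaling. The submitters' processing notes name Bowtie2, mm9 and GRCm38 without their roles. The cells were from rats, but all 635 names carry the mouse prefix, and reads that differ between the species could be lost or assigned to another name. A further deposited table holds the authors' fold changes, p-values and q-values and was not used.

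RPM and shares were computed from the library totals, with 95% Clopper-Pearson intervals and a floor of 3 reads. Two-sided exact binomial tests and Fisher's exact tests were made on miRNAs or hairpins with at least 10 reads over both libraries, with Benjamini-Hochberg adjustment over all tested, a threshold of 0.05 and a fold of 1.5 as a description. The intervals of differences against other miRNAs are exact conditional intervals of the odds ratio. The alternatives were other scalings, read limits and pseudocounts, other pairings of arms, and edgeR's exact test with an assumed spread. The limit of 1000 reads was added after the data were seen. The tests were checked on simulated data. For the exact tests these held counting error only and changes far larger than that of miR-21a-5p. That check cannot show how the exact tests behave with spread between libraries. Named miRNAs are the members, the 5 nearest in level, the neighbours in rank, those sharing a seed, the lists and the 3 hairpins on either side in arm share. The members and the lists were chosen with earlier results of these data known. Python 3.11.15, scipy 1.17.1, numpy 2.4.6, pandas 2.3.3, matplotlib 3.10.9, R 4.3.3, edgeR 4.0.16 and DESeq2 1.42.0 were used.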

Additional observations from a re-analysis of the deposited data

How the results depend on the processing

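The log2 ratio of miR-21a-5p was 0.16 with library totals and stayed above 0 under every alternative run. Over all scalings and read limits, the adjusted p of the exact binomial test ran from 0.00169 to 0.635. The log2 ratio was no longer past the threshold of that test with TMM scaling (0.092) or upper-quartile scaling (0.037). Nor was it with the median log2 ratio set to 0 (0.062) or with totals without the 10 most abundant miRNAs (0.064). With edgeR's exact test and an assumed coefficient of variation of 0.1, 0.2 or 0.4 it was 0.16, with adjusted p of 0.770, 1 and 1, so the call rests on counting error alone. A pseudocount of 5 reads in both arms moved the 3p share in NC-Exo from 0 to 0.279% and that in HC-Exo from 0.193% to 0.384%, the latter within its counting interval. Without the 10 most abundant miRNAs the share of miR-21a-5p rose to 4.07% of NC-Exo and 4.25% of HC-Exo reads, since the total is then smaller. With at least 50 reads, 37 miRNAs passed a fold of 1.5, against 123 with at least 10. In all, 32 of 43 alternative values kept their direction and side of the threshold, stayed within the counting interval or, for counts, within 1.5 times the reported value. The adjusted p of the arm balance ran from 0.261 to 0.498 and the rank of miR-21a stayed at 5. With 1 library for either condition, no replicate could be left out and nothing could be paired. Depth limits the 3p strand, with 5 reads, and miR-21b, with 3 reads over both libraries, to a statement that they were near the detection limit.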
